A study of Homo sapiens with 18 samples.

Results

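The comparison set 3 LAN-1 tumour libraries of an arm named Hmx1 against 3 LAN-1 tumour libraries of a control arm, 6 of the 18 libraries of the series. LAN-1 is an established human neuroblastoma cell line with amplified MYCN. The tumours were xenografts, grown from the cultured line in mice and collected after the animals were killed, and polyadenylated RNA of bulk tumour was sequenced. Libraries were placed in the arms LAN-1_Hmx1 and LAN-1_Control by their titles. The labels record no further treatment and do not give the direction in which Hmx1 was altered, the species of its sequence and the cargo of the control cells. Separate animals are not stated for the 3 libraries of an arm. The p-values therefore measure the spread among libraries only, and part of that spread may be technical. The series also holds both arms of the lines SKNAS and KELLY, which enter here where an effect is compared between lines and in the estimate of the spread.

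HMX1, HMX2 and HMX3 encode homeobox transcription factors. In the mouse, Hmx1 is expressed in sensory and sympathetic ganglia and in the developing eye and ear. Neuroblastoma arises from the sympathoadrenal lineage of the neural crest, and noradrenergic neuroblastoma cells are held in their state by a circuit of transcription factors that includes HAND2, ISL1 and GATA3.

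TPM is the length-corrected share of a gene in a library, scaled to the same total in every library. Values per library are TPM, in the order of replicates 1, 2 and 3. Log2 changes are differences of mean log2(TPM + 1), Hmx1 minus control, given with their standard error (SE), and they understate changes of low genes. Adjusted p-values are those of limma after Benjamini-Hochberg adjustment over the 15154 genes with at least 1 TPM in at least 3 of the 6 libraries. A gene was called at an adjusted p under 0.05.

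The number of reads behind a library is unknown. The largest ratio of coverage to FPKM in a library, a relative measure of depth, was 4.859, 4.399 and 4.563 in the Hmx1 libraries and 4.963, 5.064 and 5.034 in the control libraries. All 12 neuroblastoma identity markers were detected, with a summed level of 4474 to 4674 TPM in Hmx1 tumours and 5308 to 5693 TPM in control tumours. Markers of host tissue were low in these tables of human genes. The 12 endothelial markers summed to 2.38 to 3.78 TPM in Hmx1 tumours and 2.19 to 3.93 TPM in control tumours, with PECAM1, FLT1 and EMCN listed at 0 in all 6 libraries. The 14 leukocyte markers summed to 0.556 to 1.45 TPM in Hmx1 tumours and 0.958 to 2.0 TPM in control tumours, with PTPRC and the C1Q genes listed at 0. The 7 adipocyte markers summed to 4.8 to 6.68 TPM in Hmx1 tumours and 6.17 to 7.97 TPM in control tumours, and the 10 erythroid markers to 0.482 to 2.08 TPM in Hmx1 tumours and 1.18 to 2.33 TPM in control tumours. A value of 0 can be a failed estimate, since BOP1, a gene every cell uses, is listed at 0 in all 6 libraries. In bulk tumour, fewer cells of a type and less RNA per cell cannot be told apart.

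HMX1 itself (ENSG00000215612, GRCh37 chromosome 4, 8847802 to 8873543) had 11.5, 16.5 and 11.6 TPM in Hmx1 tumours and 11.9, 11.7 and 11.1 TPM in control tumours. The arms overlapped. The log2 change was 0.15, with an exact two-sided permutation p of 0.7 (n = 3 and 3, smallest possible p 0.1), and it was -0.01 without Hmx1 replicate 2. Its paralogue HMX2 had 11.5, 13.3 and 10.5 TPM in Hmx1 tumours and 6.86, 4.78 and 9.82 TPM in control tumours. The arms did not overlap for HMX2 (log2 change 0.69, exact permutation p = 0.1), but HMX2 was not called (limma adjusted p = 0.299). HMX3 had 0.522, 0.948 and 0.407 TPM in Hmx1 tumours and was listed at 0 in all 3 control libraries, under the minimum for the test over all genes. MYCN had 741, 846 and 773 TPM in Hmx1 tumours and 837, 866 and 898 TPM in control tumours (log2 change -0.14, exact two-sided permutation p = 0.2).

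In LAN-1 tumours 92 genes were called (0.607% of those tested), of which 31 were higher (0.205%) and 61 lower (0.403%) in the Hmx1 arm. The change reached 1 on the log2 scale for 61 of them. There were 70 protein-coding genes, 24 higher and 46 lower. Many were low: 51 of the 92 had a mean under 5 TPM in both arms. The arms did not overlap for any called gene, a pattern shown by 16.6% of all genes tested (6.7% with Hmx1 higher and 9.94% with Hmx1 lower). Without adjustment, 1133 genes (7.48%) had a p under 0.05. Higher genes made up 33.7% of the calls. After median-ratio scaling 102 were higher and 83 lower, and after quantile normalization 151 (0.996%) were higher and 0.785% of genes lower, so the majority turned to the higher side under both. Leaving out 1 LAN-1 library at a time kept 36 of the 92 calls in all 6 fits, 19 higher and 17 lower, and 7 calls were lost in every one of those fits. The share of genes called was 0.706%, 0.343% and 0.337% without Hmx1 replicate 1, 2 or 3, and 0.35%, 0.343% and 0.409% without control replicate 1, 2 or 3. With the spread taken from LAN-1 libraries alone, 14 genes were called higher and 13 lower. MXD1, AOPEP, SIM2, PRSS3, ZNF536, PDLIM1, CD163L1 and NEUROD1 were among the calls lost there (limma adjusted p = 0.0583 to 0.179). All 92 kept their sign in every alternative in which they were tested. As their arms did not overlap, only alternatives that change the unit or the scaling could have turned a sign.

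**Figure D1:**
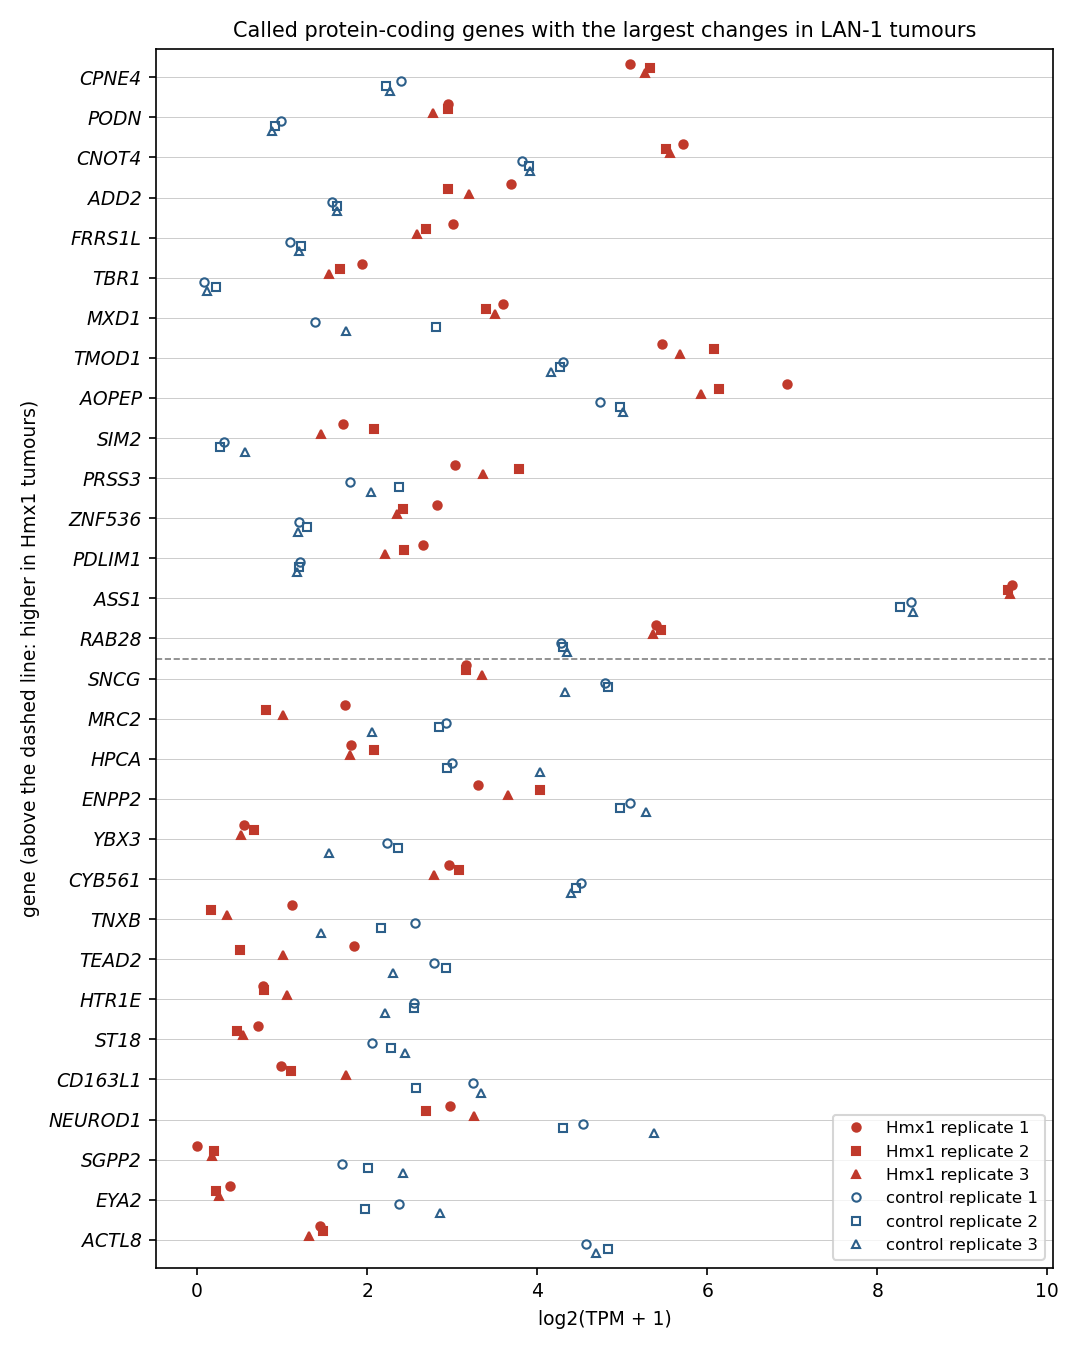
Levels of the 15 called protein-coding genes with the largest rise and the 15 with the largest fall in LAN-1 tumours, as log2(TPM + 1) on the horizontal axis, each point being 1 library (filled red, Hmx1, drawn above; open blue, control), spread vertically within a gene only to keep points apart. The arms overlap for none of these genes: ASS1 lies at 743 to 768 TPM in Hmx1 tumours against 307 to 340 TPM in control tumours, and ACTL8 at 1.49 to 1.8 TPM against 22.8 to 27.6 TPM.

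Among protein-coding genes, CPNE4 had the largest rise (GRCh37 chromosome 3, 131252399 to 132004254, minus strand). It encodes copine 4, a calcium-dependent membrane-binding protein, and had 33, 39.1 and 37.4 TPM in Hmx1 tumours and 4.29, 3.67 and 3.8 TPM in control tumours. All 3 Hmx1 libraries stood far above the controls (ratio of means 9.31, log2 change 2.93 ± 0.23 SE, limma adjusted p = 1.03e-06). PODN, the matrix proteoglycan podocan, had 6.71, 6.71 and 5.83 TPM in Hmx1 tumours and 0.987, 0.886 and 0.839 TPM in control tumours (log2 change 1.96 ± 0.16 SE, limma adjusted p = 1.7e-06). CNOT4, an E3 ubiquitin ligase associated with the CCR4-NOT deadenylase complex, had 51.6, 44.7 and 46.3 TPM in Hmx1 tumours and 13.1, 13.9 and 14.1 TPM in control tumours (log2 change 1.72 ± 0.19 SE, limma adjusted p = 0.000103). These 3 genes kept their calls whichever library was left out. The 15 markers of fibroblasts, which also make matrix proteoglycans, summed to 78.6, 116.1 and 58.8 TPM in Hmx1 tumours and 81.7, 70.1 and 69.5 TPM in control tumours, with the arms overlapping, and their part in the PODN rise was not tested.

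Genes of the actin and membrane cytoskeleton were among the rises. ADD2, beta-adducin, which joins spectrin to actin filaments, had 11.9, 6.74 and 8.14 TPM in Hmx1 tumours and 1.99, 2.12 and 2.12 TPM in control tumours (log2 change 1.66 ± 0.25 SE, limma adjusted p = 0.00216). TMOD1, tropomodulin 1, which caps the pointed ends of actin filaments, had 43.2, 66.6 and 50.1 TPM in Hmx1 tumours and 18.8, 18.2 and 16.9 TPM in control tumours (log2 change 1.5 ± 0.2 SE, limma adjusted p = 0.000692). PDLIM1, an actin-associated PDZ and LIM domain protein, had 3.64 to 5.32 TPM in Hmx1 tumours and 1.26 to 1.32 TPM in control tumours (log2 change 1.24). In the list of neurite cytoskeleton genes, ADD2 and TMOD1 were the 2 of 22 tested members that rose, none fell, and the median log2 change was 0.04 against -0.06 over all genes tested.

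Rises also covered transcription factors that were low in control tumours. TBR1, a T-box factor of cortical glutamatergic neurons, had 2.82, 2.21 and 1.92 TPM in Hmx1 tumours and 0.0583, 0.17 and 0.0841 TPM in control tumours (log2 change 1.58 ± 0.13 SE, limma adjusted p = 1.28e-06). SIM2, a bHLH-PAS factor, had 2.28, 3.24 and 1.74 TPM in Hmx1 tumours and 0.249, 0.203 and 0.481 TPM in control tumours (log2 change 1.37 ± 0.15 SE, limma adjusted p = 6.23e-05). ZNF536, a zinc finger protein known to restrain neuronal differentiation, had 4.1 to 6.08 TPM in Hmx1 tumours and 1.28 to 1.44 TPM in control tumours (log2 change 1.31 ± 0.18 SE, limma adjusted p = 0.00079). MXD1, which pairs with MAX in place of MYC proteins, had 11.1, 9.54 and 10.3 TPM in Hmx1 tumours and 1.61, 6.03 and 2.36 TPM in control tumours (log2 change 1.51 ± 0.27 SE, limma adjusted p = 0.0105). Control replicate 2 was the nearest to the Hmx1 libraries for MXD1, and its log2 change was 1.21 without control replicate 1 and 1.40 without control replicate 3, neither of which passed. In the list of MYC network genes without MYCN, MXD1 was the 1 of 10 tested members that rose, and none of 27 tested MYC and MYCN targets was called (median log2 change -0.14).

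The most abundant protein-coding gene called was ASS1 (GRCh37 chromosome 9, 133320316 to 133376661), argininosuccinate synthase, an enzyme of arginine synthesis. It had 768, 743 and 752 TPM in Hmx1 tumours and 335, 307 and 340 TPM in control tumours. The 3 Hmx1 libraries lay close together and far above the controls (ratio of means 2.3, log2 change 1.2 ± 0.17 SE, limma adjusted p = 0.000936). The other 18 tested members of the list of arginine, serine and asparagine synthesis were not called. One was PSAT1, of serine synthesis, which had 381, 348 and 376 TPM in Hmx1 tumours and 251, 253 and 253 TPM in control tumours (log2 change 0.54, limma adjusted p = 0.286).

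The remaining protein-coding rises of the 15 largest were FRRS1L, an AMPA receptor accessory protein (log2 change 1.59), AOPEP, aminopeptidase O (1.42), PRSS3, a trypsinogen (1.32), and RAB28, a small GTPase (1.09). The call for AOPEP was lost without control replicate 1, where its log2 change was 1.34. RAB28 lost its call in every fit that left out 1 library (log2 change 1.07 to 1.12, limma adjusted p = 0.0543 to 0.111). Among other transcripts, NDUFA5P9, a processed pseudogene, had 689, 372 and 354 TPM in Hmx1 tumours against 0, 0 and 0.169 TPM in control tumours (log2 change 8.74), and its value is uncertain where reads could be split with its parent gene. The lincRNA ENSG00000251259 had 13, 11.9 and 11.7 TPM in Hmx1 tumours against 0, 0.142 and 0 TPM in control tumours (log2 change 3.66, limma adjusted p = 0.0214), and lost its call in all 6 fits that left out 1 library (limma adjusted p = 0.0578 to 0.0894).

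ACTL8 had the largest fall of any gene (GRCh37 chromosome 1, 18081808 to 18153558, plus strand). This actin-like gene is normally expressed in testis. It had 1.73, 1.8 and 1.49 TPM in Hmx1 tumours and 22.8, 27.6 and 24.9 TPM in control tumours, and all 3 Hmx1 libraries lay far below the controls (ratio of means, control over Hmx1, 15, log2 change -3.29 ± 0.19 SE, limma adjusted p = 8.12e-09). LINC01954, a lincRNA, was listed at 0 in all 3 Hmx1 libraries and had 7.22, 5.35 and 4.61 TPM in control tumours (log2 change -2.73 ± 0.14 SE, limma adjusted p = 9.53e-10). Of the 8 tested cancer-testis genes ACTL8 was the 1 that fell, none rose, and the median log2 change was -0.37. Other transcripts that fell were ENSG00000250957, a lincRNA with 2.83, 2.19 and 2.48 TPM in Hmx1 tumours and 15.3, 14.1 and 25.5 TPM in control tumours (log2 change -2.42), LINC00482 (-1.35), MIR3667HG (-1.23) and the mitochondrial tRNA MT-TW (-1.97). MT-TW lost its call without Hmx1 replicate 2 or 3 or control replicate 1 or 2 (log2 change -1.97 to -1.8, limma adjusted p up to 0.136). LINC00482 and MIR3667HG lost theirs without Hmx1 replicate 2 or control replicate 2 (log2 change -1.24 and -1.22 for LINC00482, -1.17 and -1.12 for MIR3667HG). PAGE1, a cancer-testis gene, was listed at 0 in all 3 Hmx1 libraries and had 1.05, 1.53 and 1.86 TPM in control tumours (limma adjusted p = 0.105).

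Neuronal and neuroendocrine genes were among the falls. NEUROD1, a proneural bHLH factor, had 6.88, 5.45 and 8.57 TPM in Hmx1 tumours and 22.3, 18.8 and 40.4 TPM in control tumours (log2 change -1.77 ± 0.24 SE, limma adjusted p = 0.00079). ST18, a zinc finger factor of the MYT1 family, had 0.642, 0.387 and 0.457 TPM in Hmx1 tumours and 3.16, 3.85 and 4.46 TPM in control tumours (log2 change -1.68 ± 0.23 SE, limma adjusted p = 0.00079). These were the 2 of 14 tested proneural and neuronal transcription factors that fell, none rose, and the list's median log2 change was -0.26. The median for the list was 0.07 in Hmx1 replicate 1, against -0.39 and -0.47 in replicates 2 and 3, each relative to the control mean, where the medians over all genes tested were 0.08, -0.14 and -0.11. NEUROG2, of the same list, had 36.2, 41.2 and 40 TPM in Hmx1 tumours and 21.7, 25.4 and 40.1 TPM in control tumours (log2 change 0.46, limma adjusted p = 0.655).

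CYB561, cytochrome b561 of catecholamine storage vesicles, had 6.78, 7.43 and 5.92 TPM in Hmx1 tumours and 21.8, 21 and 20 TPM in control tumours (log2 change -1.51 ± 0.21 SE, limma adjusted p = 0.00079). It was the 1 of 12 tested genes of catecholamine synthesis, storage and breakdown that fell, and none rose (median log2 change -0.2). The enzymes TH and DDC did not pass the test. TH, tyrosine hydroxylase, had 46.7, 40.4 and 54.6 TPM in Hmx1 tumours and 89.1, 93.3 and 57.4 TPM in control tumours (log2 change -0.73, limma adjusted p = 0.265). DDC, the decarboxylase that makes dopamine, had 36.5, 45.8 and 46.2 TPM in Hmx1 tumours and 76.5, 83.9 and 59.9 TPM in control tumours (log2 change -0.76, limma adjusted p = 0.358). Control replicate 3 was the control nearest to the Hmx1 arm for both enzymes.

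Granins and prohormone processing genes held 1 call. SCG5, the 7B2 chaperone of the prohormone convertase PCSK2, had 2.42, 2.66 and 4.06 TPM in Hmx1 tumours and 8.38, 8.37 and 10.4 TPM in control tumours (log2 change -1.33 ± 0.27 SE, limma adjusted p = 0.0246). It was the 1 of 11 tested granin and prohormone genes called. The call for SCG5 was lost in 5 of the 6 fits that left out 1 library, all but that without Hmx1 replicate 3 (log2 change -1.37 to -1.22 in those 5). CHGA, chromogranin A, had 1504, 1341 and 1415 TPM in Hmx1 tumours and 2624, 2683 and 2247 TPM in control tumours (log2 change -0.82, limma adjusted p = 0.0743). CHGB, chromogranin B, had 867, 960 and 800 TPM in Hmx1 tumours and 386, 396 and 377 TPM in control tumours (log2 change 1.17, limma adjusted p = 0.0856). Neither chromogranin passed the test, and the arms did not overlap for either. The list had a median log2 change of 0.23, with 7 members above 0 and 4 below.

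A few synaptic genes also fell. SNCG, gamma-synuclein, had 7.97, 7.97 and 9.19 TPM in Hmx1 tumours and 26.8, 27.4 and 19 TPM in control tumours (log2 change -1.42 ± 0.23 SE, limma adjusted p = 0.00445). HPCA, the calcium sensor hippocalcin, had 2.5, 3.23 and 2.48 TPM in Hmx1 tumours and 6.99, 6.68 and 15.4 TPM in control tumours (log2 change -1.43 ± 0.27 SE, limma adjusted p = 0.0192). HPCA lost its call without Hmx1 replicate 1 or 3 (log2 change -1.38 in either fit) or without control replicate 3 (-1.08). They were the 2 of 21 tested synapse and vesicle genes that fell, none rose, and the median log2 change was -0.08, against -0.06 over all genes tested. HTR1E, a serotonin receptor, had 0.714, 0.726 and 1.08 TPM in Hmx1 tumours and 4.86, 4.87 and 3.64 TPM in control tumours (log2 change -1.57 ± 0.21 SE, limma adjusted p = 0.00079). RET, the GDNF receptor tyrosine kinase, had 8.71, 9.99 and 8.78 TPM in Hmx1 tumours and 25.9, 22.6 and 15.7 TPM in control tumours and did not pass (log2 change -1.11, limma adjusted p = 0.101). No member of 12 tested neurotrophin, GDNF and ALK receptor genes was called.

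The noradrenergic factors held 1 call. Of 16 tested, ZNF536 was the 1 called, and the median log2 change was -0.12. GATA2 had 166, 135 and 153 TPM in Hmx1 tumours and 220, 194 and 205 TPM in control tumours (log2 change -0.45, limma adjusted p = 0.358). None of 11 tested cholinergic genes was called. The median of that list lay at 0.3 in Hmx1 replicate 1, and at -0.22 and -0.12 in replicates 2 and 3, where all genes tested lay at 0.08, -0.14 and -0.11.

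Genes of mesenchymal identity, matrix and signalling also fell. EYA2, a transcriptional coactivator with phosphatase activity, had 0.303, 0.17 and 0.198 TPM in Hmx1 tumours and 4.18, 2.93 and 6.27 TPM in control tumours (log2 change -2.11 ± 0.27 SE, limma adjusted p = 0.000551). YBX3, a cold shock domain protein, had 0.468, 0.586 and 0.425 TPM in Hmx1 tumours and 3.7, 4.13 and 1.93 TPM in control tumours (log2 change -1.47 ± 0.19 SE, limma adjusted p = 0.000692). YBX3 was among the 2 of 18 tested mesenchymal identity genes that fell, and none rose (median log2 change -0.2). The 11 skin epithelium markers, a possible host tissue, summed to 3.53, 8.12 and 7.8 TPM in Hmx1 tumours and 11.1, 19.1 and 16.3 TPM in control tumours, so the arms did not overlap. Of these markers 7 were listed at 0 in all 6 libraries (KRT5, KRT14, KRT15, KRT1, KRTDAP, LORICRIN and DSP), and their part in the falls of mesenchymal and matrix genes was not tested.

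MRC2, a collagen uptake receptor, had 2.34, 0.756 and 1.02 TPM in Hmx1 tumours and 6.59, 6.21 and 3.15 TPM in control tumours (log2 change -1.42 ± 0.28 SE, limma adjusted p = 0.0217). It lost its call without Hmx1 replicate 2 or 3 or control replicate 1 or 2 (log2 change -1.33 to -1.23). Of 25 tested matrix and TGF-beta genes PODN rose and MRC2 fell, and the median log2 change was -0.32. TNXB, tenascin-X, and TEAD2, a transcription factor of the Hippo pathway, had adjusted p-values of 0.0475 and 0.0493 in the limma fit and log2 changes of -1.52 and -1.55. TNXB, which has a near-identical pseudogene copy, lost its call without Hmx1 replicate 2 or 3 or control replicate 1 or 2 (log2 change -1.47 to -1.27), and TEAD2 lost it in 5 of the 6 fits, all but that without Hmx1 replicate 1 (-1.73 to -1.24). ENPP2, autotaxin, which makes lysophosphatidic acid, had 8.91, 15.3 and 11.6 TPM in Hmx1 tumours and 33.1, 30.5 and 37.8 TPM in control tumours (log2 change -1.45 ± 0.28 SE, limma adjusted p = 0.0201). ENPP2 lost its call in 5 of the 6 fits, all but that without Hmx1 replicate 2 (-1.52 to -1.27).

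SGPP2, a sphingosine-1-phosphate phosphatase, had 0, 0.148 and 0.125 TPM in Hmx1 tumours and 2.25, 3.01 and 4.34 TPM in control tumours (log2 change -1.92 ± 0.18 SE, limma adjusted p = 7.13e-06). CD163L1, a scavenger receptor, had 0.975, 1.15 and 2.36 TPM in Hmx1 tumours and 8.45, 4.96 and 9.11 TPM in control tumours (log2 change -1.77 ± 0.28 SE, limma adjusted p = 0.00329). BST2, tetherin, had 3.02, 1.94 and 2 TPM in Hmx1 tumours and 5.17, 7.18 and 4.98 TPM in control tumours (log2 change -1.03 ± 0.2 SE, limma adjusted p = 0.0221). BST2 was the 1 of 11 tested interferon response genes called, and 19 of 30 members were too low to test. It lost its call without Hmx1 replicate 2 or 3 or control replicate 1 or 2 (log2 change -1.09 to -0.89). None of 7 tested antigen presentation genes was called.

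A pair of subunits of the muscle-type acetylcholine receptor fell, named here after their values were seen. CHRNA1 had 0.181, 0.124 and 0.424 TPM in Hmx1 tumours and 1.4, 1.78 and 3.79 TPM in control tumours (log2 change -1.36 ± 0.24 SE, limma adjusted p = 0.0105). CHRND had 1.1, 1.72 and 2.32 TPM in Hmx1 tumours and 4.53, 3.74 and 6.52 TPM in control tumours (log2 change -1.13 ± 0.2 SE, limma adjusted p = 0.00808). Both lost their call without control replicate 3 (log2 change -1.06 for CHRNA1 and -0.94 for CHRND), and CHRNA1 also without Hmx1 replicate 2 (-1.29). The 14 skeletal muscle markers summed to 1.33 to 3.37 TPM in Hmx1 tumours and 2.55 to 4.07 TPM in control tumours, and 13 of the 14 were under 1 TPM in every library.

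In 3 pairs, called genes lay within 500000 bases of each other, and both members fell. At least 1 member of each pair lost its call in every fit that left out 1 library. TNXB and HSPA1B, a heat shock protein 70 gene, lay 213419 bases apart on chromosome 6. ATP2A3, a calcium pump, and P2RX5, an ATP-gated channel, lay 251676 bases apart on chromosome 17. ATP2A3 lost its call in all 6 fits (log2 change -1.2 to -1.1), and P2RX5 in 5 of the 6, all but that without Hmx1 replicate 1 (-1.19 to -0.96). TEAD2 and BCL2L12 lay 324971 bases apart on chromosome 19, and BCL2L12 lost its call in all 6 fits (log2 change -1.08 to -0.89). HSPA1B had 117.5, 92.8 and 129 TPM in Hmx1 tumours and 264, 210 and 325 TPM in control tumours (log2 change -1.22 ± 0.26 SE, limma adjusted p = 0.0422). Its near-identical copy HSPA1A can share its reads, and the call was lost in all 6 fits that left out 1 library (log2 change -1.38 to -1.07). HSPA1B was the 1 of 13 tested immediate early and stress genes called, and the median log2 change of that list was -0.3.

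The metabolic lists held few calls. PYGM, muscle glycogen phosphorylase, had 7.25, 4.71 and 6.16 TPM in Hmx1 tumours and 15.1, 16.6 and 15.5 TPM in control tumours (log2 change -1.26 ± 0.23 SE, limma adjusted p = 0.0105). It lost its call without Hmx1 replicate 2 (log2 change -1.12) or control replicate 2 (-1.23). It was the 1 of 37 tested hypoxia and glycolysis genes called. In that list 35 members had a negative log2 change, and the median was -0.15 against -0.06 over all genes tested. By library the median of the list was -0.09, -0.41 and -0.13 in the Hmx1 libraries, where all genes tested lay at 0.08, -0.14 and -0.11.

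None of 24 tested cholesterol synthesis genes was called, although 21 had a positive log2 change and the median was 0.3. The list's median was 0.64 in Hmx1 replicate 1, -0.02 in replicate 2 and 0.34 in replicate 3. The medians over all genes tested were 0.08, -0.14 and -0.11, so all 3 libraries lay above theirs, replicate 2 by the least. IDI1, isopentenyl-diphosphate isomerase, had 168, 155 and 175 TPM in Hmx1 tumours and 96.4, 115.8 and 82.3 TPM in control tumours and did not pass (log2 change 0.76, limma adjusted p = 0.0627). HMGCS1, of the first steps of the pathway, had 244, 112.4 and 178 TPM in Hmx1 tumours and 119.2, 140 and 55.6 TPM in control tumours (log2 change 0.79, limma adjusted p = 0.443), with the arms overlapping. None of 14 tested fatty acid synthesis genes, 20 unfolded protein response genes, 41 cell cycle genes or 19 p53 and apoptosis genes was called. The same held for 10 retinoic acid, 21 BMP and Notch, 28 Wnt and axon guidance, 9 chromaffin and bridge, 5 Schwann cell precursor and 9 histone genes. None of the 13 mitochondrial mRNAs tested, a list without tRNAs such as MT-TW, and no ribosomal protein gene of 32 was called. None of the 12 neuroblastoma identity genes and neither of the 2 HMX genes tested was called.

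**Figure D2:**
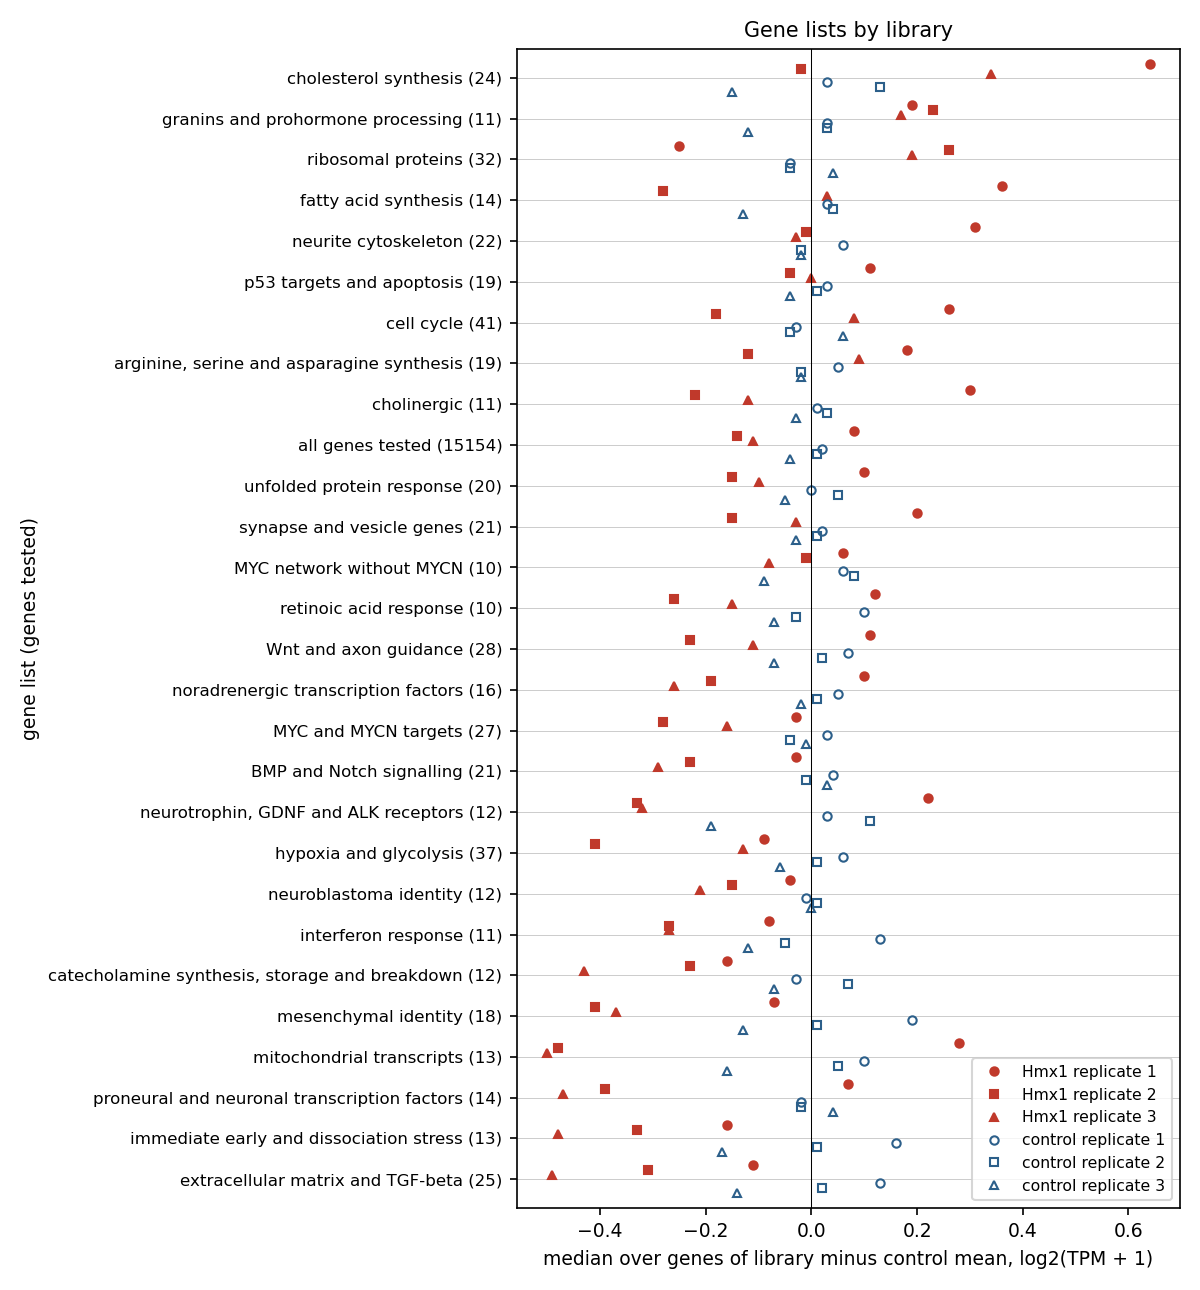
Median over the tested genes of each list of the library value minus the control mean, on the log2(TPM + 1) scale, for lists with at least 10 tested genes, ordered by the median log2 change of the arm, each point being 1 library (filled red, Hmx1, drawn above; open blue, control). Hmx1 replicate 1 lies apart from replicates 2 and 3 for several lists: at 0.28 against -0.48 and -0.5 for mitochondrial transcripts, and at -0.25 against 0.26 and 0.19 for ribosomal proteins.

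HMX proteins bind DNA with the letters CAAGTG at the core of their known target sites. The letters also fit the E-box pattern CANNTG of bHLH factors. They were searched on both strands (CAAGTG or CACTTG) in the 250 bases before 1 start of each gene, taken from RefSeq (GRCh38.p14). The letters stood in 2619 of all 27305 windows (9.59%) and in 684 of the 9901 windows of tested protein-coding genes (6.91%). They stood in 1 of 18 windows of genes that rose (5.56%), that of MXD1, and in none of 40 windows of genes that fell, the called protein-coding genes for which a window was matched by symbol. The table holds 1 start per gene, and a gene can have others, which were not searched. The CPNE4 window therefore need not lie at the end of the gene span given above, which is on GRCh37. The MXD1 window is shown with its 2 matches in capitals, beside those of CPNE4 and ACTL8, the protein-coding genes with the largest rise and the largest fall, which hold none. MXD1 is at chr2:69914859-69915108 on the plus strand, CPNE4 at chr3:132039607-132039856 on the minus strand and ACTL8 at chr1:17755083-17755332 on the plus strand (GRCh38.p14), and each is written 5′ to 3′ on the strand of its gene.
MXD1: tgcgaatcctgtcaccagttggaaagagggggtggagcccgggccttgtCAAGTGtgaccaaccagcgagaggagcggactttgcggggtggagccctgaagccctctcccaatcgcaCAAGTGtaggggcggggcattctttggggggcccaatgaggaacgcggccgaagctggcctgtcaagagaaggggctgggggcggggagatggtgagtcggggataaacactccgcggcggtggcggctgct
CPNE4: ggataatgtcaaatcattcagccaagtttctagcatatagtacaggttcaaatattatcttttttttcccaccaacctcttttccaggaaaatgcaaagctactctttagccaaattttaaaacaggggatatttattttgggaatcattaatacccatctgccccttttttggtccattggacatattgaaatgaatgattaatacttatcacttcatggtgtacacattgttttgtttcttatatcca
ACTL8: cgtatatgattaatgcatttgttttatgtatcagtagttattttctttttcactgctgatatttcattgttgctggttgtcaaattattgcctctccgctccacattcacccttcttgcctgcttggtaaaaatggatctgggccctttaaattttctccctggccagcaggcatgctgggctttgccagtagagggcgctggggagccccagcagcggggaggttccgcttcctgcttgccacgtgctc

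Hmx1 replicate 1 lay near the controls on the first principal component, but apart from them on the second. On the first principal component of the 6 libraries, which held 38.9% of the variance, it had a score of -17.4, against 35.8 and 26.7 in Hmx1 replicates 2 and 3 and -19.8, -18.2 and -7.2 in the controls. On the second component (22.5%) it stood alone at 33.7, with the other Hmx1 libraries at -5.7 and 10 and the controls at -9.3, -11.9 and -16.8. Pearson's r across genes, which are not independent replicates, was 0.969 and 0.9756 between replicate 1 and the other Hmx1 libraries, and 0.9755 to 0.9777 between replicate 1 and the controls. Between Hmx1 replicate 2 and the controls r was 0.971 to 0.9738, and between Hmx1 replicate 3 and the controls 0.9736 to 0.9766. Within the control arm r was 0.9835 to 0.9852.

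**Figure D3:**
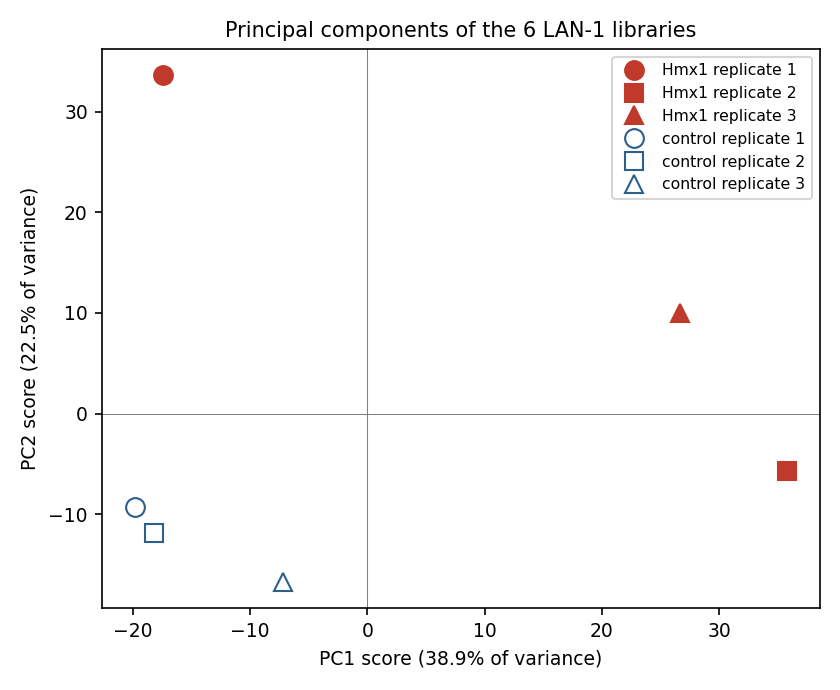
Scores of the 6 LAN-1 libraries on the first and second principal components of log2(TPM + 1) (filled red, Hmx1; open blue, control; symbol, replicate). Hmx1 replicates 2 and 3 lie at 35.8 and 26.7 on the first component, and Hmx1 replicate 1 at -17.4, within the controls' range of -19.8 to -7.2.

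The difference of replicate 1 was broad. It lay more than 1 log2 above the mean of the other 2 Hmx1 libraries in 454 genes, and beyond it in either direction in 3.81% of genes tested. The same count was 2.29% for Hmx1 replicate 2, 1.54% for Hmx1 replicate 3 and 1.27% to 1.45% for the controls. Its median difference over all genes was 0.21. In 1709 of the 15154 genes tested it lay within the control range while both other Hmx1 libraries lay below all controls. It lay within that range in 409 genes while both others lay above. Like counts for Hmx1 replicates 2 and 3 were not made. Relative to the control mean, the medians over all genes tested were 0.08 in replicate 1 and -0.14 and -0.11 in replicates 2 and 3. The part of that offset in these counts was not tested. Mitochondrial transcripts took 7.07% of the TPM of replicate 1, against 4.66% and 4.47% in the other Hmx1 libraries and 6.54%, 6.36% and 5.72% in the controls. Whether that share or the depth ratio takes part in its position was not tested. Without mitochondrial transcripts its score on the first component was -19.7.

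Single genes set it apart from the other 2 Hmx1 libraries, named by the size of that difference. MLEC, a lectin of the endoplasmic reticulum, had 89.7 TPM in replicate 1, 6.19 and 4.56 TPM in Hmx1 replicates 2 and 3, and 70.7, 67.8 and 40 TPM in control tumours. GSTM1, a glutathione transferase with close paralogues, had 12.2 TPM in replicate 1, 0.268 and 0.327 TPM in Hmx1 replicates 2 and 3, and 16.7, 14.3 and 0.338 TPM in control tumours. For MLEC replicate 1 lay above the controls and the other Hmx1 libraries lay below them, while for GSTM1 control replicate 3 was as low as Hmx1 replicates 2 and 3. SUDS3, a corepressor subunit, had 51.8 TPM in replicate 1, 8.49 and 10.1 TPM in the other Hmx1 libraries and 11.4 to 12.4 TPM in control tumours. FBXO34, an F-box protein, had 2.04 TPM in replicate 1, 19.9 and 20.7 TPM in the other Hmx1 libraries and 19.2 to 21.5 TPM in control tumours. For SUDS3 and FBXO34 replicate 1 lay apart from all 5 other libraries.

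Replicate 1 was also set against the genes called without it. Without it 0.706% of genes were called, 33 higher (0.218%) and 74 lower (0.488%), and 68 of these were also called with all 6 libraries. In these genes, chosen without replicate 1 but with the same controls, it lay on the same side of the control mean as the other Hmx1 libraries in 94 (87.9%). It lay beyond all 3 controls in 88 (82.2%). Over all genes tested, it lay on the same side in 49.5% and beyond all 3 controls on that side in 31.5%. Choosing genes by the same control values itself favours the same side, and the share that this choice alone gives was not computed. The median gene showed 67.1% of the change of the other 2 libraries (quartiles 36.5% and 100%), and 41 genes showed less than 50%. The same measure for Hmx1 replicate 2 gave 50 of 52 genes on the same side with a median of 93.7%, and for Hmx1 replicate 3 it gave 51 of 51 with a median of 85.9%. Over all genes tested, 66.6% lay on the same side for Hmx1 replicate 2 and 72.1% for Hmx1 replicate 3. Beyond all controls on that side lay 50.3% and 53.7%. As 1 library, replicate 1 has no replicate, and these values are a description.

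**Figure D4:**
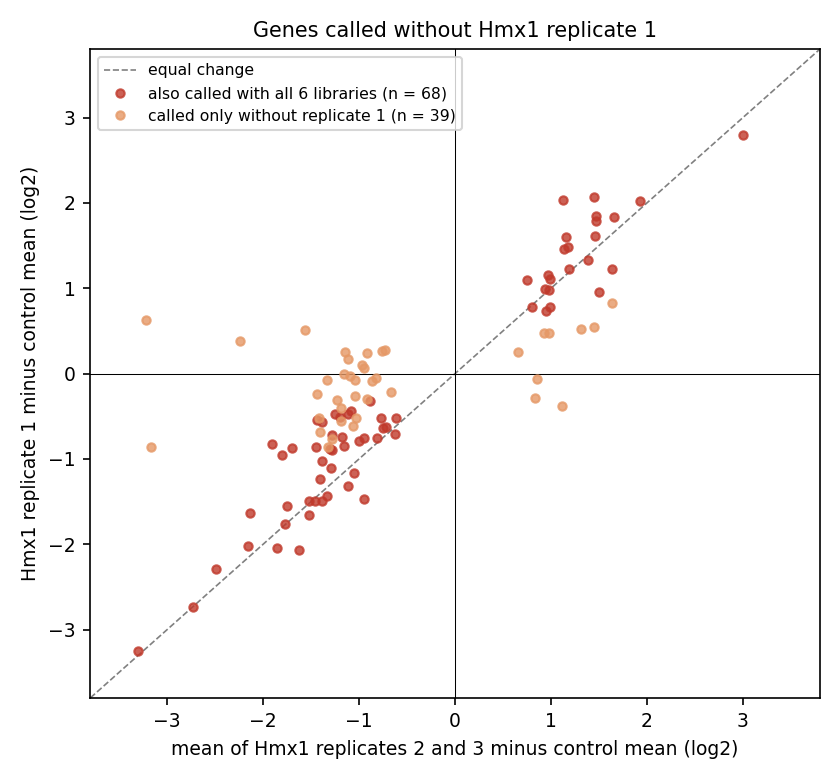
Change of Hmx1 replicate 1 (vertical) against the change of the mean of Hmx1 replicates 2 and 3 (horizontal), each relative to the control mean in log2(TPM + 1), for the genes called without replicate 1 (33 higher and 74 lower), with the 68 also called with all 6 libraries dark, the 39 called only without it light, and equal change dashed. NDUFA5P9, at 8.43 on the horizontal and 9.36 on the vertical scale, lies outside the panel, and 13 genes lie on opposite sides of 0 on the 2 axes.

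Of the genes called without replicate 1, 39 were not called with it. In the fit without it, MLEC had the largest change among them (log2 change -3.22) and SNORD14D, a small nucleolar RNA, the next (-3.17). With all 6 libraries the change was larger for SNORD14D (-2.4) than for MLEC (-1.93). FN1, fibronectin, had 48.2 TPM in replicate 1, 23.7 and 26.6 TPM in Hmx1 replicates 2 and 3, and 70.2, 52 and 59.7 TPM in control tumours (log2 change -1.23 without replicate 1, -0.92 with it). COL2A1, a fibrillar collagen, had 2.53, 1.22 and 0.615 TPM in Hmx1 tumours and 3.88, 4.47 and 3.89 TPM in control tumours (-1.42 without replicate 1, -1.12 with it). GPI, a glycolytic enzyme, had 395 TPM in replicate 1, 222 and 237 TPM in the other Hmx1 libraries and 410 to 432 TPM in control tumours (-0.87 without replicate 1, -0.61 with it). For FN1, COL2A1 and GPI replicate 1 lay between the other Hmx1 libraries and the controls. RLN2, a relaxin, was higher, with 2.17, 4.69 and 4.26 TPM in Hmx1 tumours and 0.996 to 1.51 TPM in control tumours (1.31 without replicate 1, 1.05 with it). Another 24 genes called with all 6 libraries were not called without it.

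The 3 Hmx1 libraries also shared shifts that followed position on the chromosomes. The windows were looked at after the data were seen, so the values are a description without a test. In 10 Mb windows with at least 20 tested genes (262 windows), the median log2 difference from the controls was taken relative to all genes of the library. All 3 Hmx1 libraries lay at 0.15 or above in 8 windows, and at -0.15 or below in 3. Taken singly, Hmx1 replicates 1, 2 and 3 lay at or beyond 0.15 in either direction in 13, 33 and 30 windows, and control replicates 1, 2 and 3, each set against the mean of the other 2, in 0, 0 and 2 windows. Control values over all windows ran from -0.17 to 0.16.

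The widest of these stretches was chromosome 9 from 80 to 140 Mb (GRCh37), with 6 adjacent windows and 383 tested genes. Its median was 0.37, 0.26 and 0.29 in Hmx1 replicates 1, 2 and 3. This is a level 1.23 times that of the controls, and 83% of its genes lay above 0, against 48.7% of the genes outside the 4 stretches. Replicate 1 had the highest value of the 3 here. Its distance from the controls follows from the choice of windows, in which all 3 Hmx1 libraries lay at or beyond 0.15. The same choice favours genes on the same side of 0 in each of the 4 stretches. The chromosome 9 stretch held 4 of the 31 genes called higher (0.205% of all genes tested) and none called lower. They were ASS1, TMOD1, AOPEP and FRRS1L, with changes larger than its median. In the other lines the median over all tested genes of this stretch was 0.0 in SKNAS and -0.03 in KELLY, and the difference between lines was not tested for stretches. The stretches were picked in LAN-1, and other windows were shifted in the other lines. The SKNAS median was 0.62 on chromosome 1 from 0 to 10 Mb and 0.68 on chromosome 13 from 70 to 80 Mb. In KELLY it was -0.24 on chromosome 15 from 90 to 100 Mb.

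Chromosome 18 from 0 to 20 Mb (70 genes) had medians of 0.39, 0.41 and 0.43 in the Hmx1 libraries. It held none of the called genes, and TYMS, thymidylate synthase, is one of its genes, with 208, 182 and 192 TPM in Hmx1 tumours and 121.4, 122.7 and 167 TPM in control tumours (log2 change 0.51, limma adjusted p = 0.686). Chromosome 8 from 120 Mb to its end (127 genes, 120 to 150 Mb) had medians of -0.39, -0.32 and -0.36 in Hmx1 libraries, and 9 of its genes lay above 0. ENPP2 fell there, and so did DGAT1, of triglyceride synthesis (log2 change -0.69), whose call was kept only without Hmx1 replicate 1 among fits that left out 1 library (-0.74 to -0.62 in the others). In SKNAS the median over the same genes was 0.3 and in KELLY -0.02. Chromosome 10 from 130 to 140 Mb (27 genes) had medians of -0.38, -0.27 and -0.24, with 26 genes below 0. MTG1, a mitochondrial GTPase, fell there (log2 change -0.69), and its call too was kept only without Hmx1 replicate 1 (-0.71 to -0.60 in the others). In all, 7 of the 92 called genes lay in these 4 stretches, which held 607 of the 15154 genes tested (0.607% called over all of them).

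**Figure D5:**
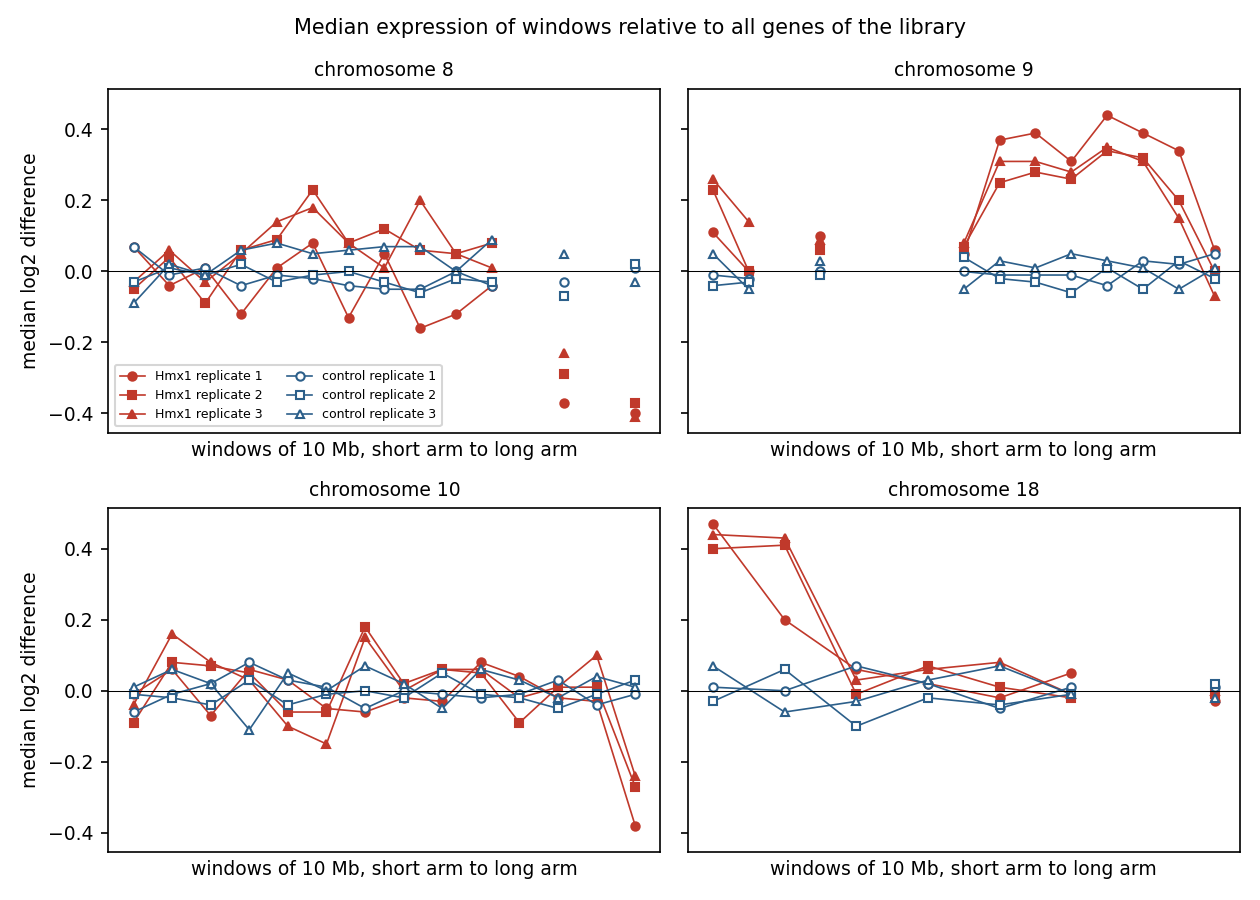
Median log2 difference of 10 Mb windows along chromosomes 8, 9, 10 and 18, relative to all genes of the library, where Hmx1 libraries (filled red) are set against the control mean and each control (open blue) against the mean of the other 2, windows run from the short arm to the long arm, and gaps are windows with fewer than 20 tested genes. The Hmx1 libraries lie together at about 0.37, 0.26 and 0.29 from 80 to 140 Mb of chromosome 9, while the controls stay near 0.

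The Hmx1 effect of a line means here the difference between its Hmx1 and control arms, whatever its source. Hmx1 and any other difference between the arms cannot be told apart in this design. The Hmx1 effect in LAN-1 tumours differed from that in SKNAS tumours for 418 genes (2.76% of those tested) and from that in KELLY tumours for 32 (0.211%), in tests of the difference itself. Of the 92 genes called in LAN-1, 48 differed from SKNAS, 26 from KELLY and 18 from both. The 92 were chosen by a LAN-1 change that is also part of each difference, so the choice itself favours a difference. Among those 18 were CPNE4, whose log2 change was 2.93 in LAN-1, -0.05 in SKNAS and 0.26 in KELLY, and ACTL8, at -3.29 in LAN-1, -0.16 in SKNAS and 0.1 in KELLY. NEUROD1 was at -1.77 in LAN-1, 0.15 in SKNAS and 0.37 in KELLY, and ASS1 at 1.2 in LAN-1, -0.05 in SKNAS and -0.02 in KELLY. ADD2 was at 1.66 in LAN-1 and -1.22 in SKNAS, where it was called in the opposite direction. Of the 92 genes, 13 were called in the same direction and 8 in the opposite direction in SKNAS, and 0 were called in KELLY. Over all 15154 genes tested, 5.49% were called in SKNAS and 0.0396% in KELLY. Genes entered these tests by their LAN-1 levels alone, and a gene absent from both arms of another line shows no change there.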

How the data were processed

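A stranded poly(A) kit and paired 125 bp reads on 2 lanes were used for the bulk xenograft RNA, per the labels' protocols. STAR, bcl2fastq and FastQC, and the builds GRCh38.p12 and GRCh37 with no role, are named in the submitters' processing notes. A counting tool, an annotation, the use of strand or any removal of mouse reads is not given in the sources used. Overlapping genes on opposite strands and near-identical copies may therefore share reads. TPM and FPKM are deposited columns of each library's gene table, per the file headers, and so is the coverage signal, used only for relative depth. TPM keeps no counts, so no counting interval is given. The last gene on chromosome 1 ends at 249231242, past the end of that chromosome in GRCh38, which places the coordinates on GRCh37.

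TPM of lines with the same identifier were summed. Of 63677 identifiers, 52181 received a symbol and 52526 a GENCODE v29 biotype. limma 3.58.1 (R 4.3.3) with a mean-variance trend was fitted to log2(TPM + 1) of all 18 libraries with 6 group means (12 residual and 5.73 prior degrees of freedom), on genes with at least 1 TPM in at least 3 of the 6 LAN-1 libraries, with Benjamini-Hochberg adjustment. The fit was tested on simulated data with independent values, so without the departure of Hmx1 replicate 1. It called 64 of 100 genes changed by 1 log2 and 96 of 100 changed by 2 log2, with 8 false calls. The 40 gene lists and the comparison were chosen with earlier results of these data known. Named genes were the 15 largest and 15 smallest called protein-coding changes, the 5 largest and smallest of other transcripts, called list members and at most 2 list extremes each way, the genes most distant in replicate 1 or called only without it, the 10 largest that differed from both other lines, and called pairs within 500000 bases. IDI1, CHRNA1, CHRND, DGAT1 and MTG1 were named after their values were seen. Some items that the rule selects are not reported here. Alternatives changed the filter, pseudocount, unit, scaling, libraries in the fit and the prior.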

Additional observations from a re-analysis of the deposited data

Results flagged for a closer look

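The Hmx1 effect in LAN-1 tumours differed from that in another line by a test of the difference itself, limma with Benjamini-Hochberg adjustment at 0.05, for 418 genes against SKNAS and 32 against KELLY. The 10 genes with the largest LAN-1 change that differed from both lines follow as the LAN-1 effect minus the other effect on the log2 scale. The difference for NDUFA5P9 was 8.74 against SKNAS and 8.68 against KELLY, and for CPNE4 it was 2.98 and 2.67. For ADD2 it was 2.88 against SKNAS and 1.83 against KELLY, for PODN 1.83 and 1.88, and for CNOT4 1.62 and 1.41. Among genes that fell, the difference for ACTL8 was -3.13 against SKNAS and -3.39 against KELLY, for ENSG00000250957, a lincRNA, -3.4 and -3.04, and for LINC01954 -2.73 in both. For SGPP2 it was -2.75 against SKNAS and -1.66 against KELLY, and for NEUROD1 -1.91 and -2.14. Genes entered by their LAN-1 levels alone, and levels in SKNAS and KELLY are not given here. A gene absent from both arms of another line shows no change there, so its difference repeats the LAN-1 change.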

How the results depend on the processing

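The number of calls moved most. Of the 92 genes, 18 kept their call under every alternative in which they were tested. Genes higher and lower numbered 12 (0.105%) and 13 (0.114%) with a minimum of 5 TPM, and 14 (0.0924%) and 13 (0.0858%) with LAN-1 libraries alone. With library weights added they numbered 902 (5.95%) and 3053 (20.1%), Hmx1 replicate 1 having a weight of 0.188 and replicate 3 one of 4.835. Median-ratio scaling gave 102 (0.673%) and 83, quantile normalization 151 (0.996%) and 0.785% of genes. Higher genes numbered 59 (0.21%) with no filter, 18 with a pseudocount of 0.1 (0.119%) and 73 (0.482%) in FPKM, and lower genes 20 (0.132%) without SKNAS libraries. Leaving out 1 LAN-1 library gave 23 to 33 higher genes (0.152% to 0.218%) and 25 to 74 lower genes (0.165% to 0.488%). HMX1 lay at -0.01 to 0.24 in those fits, below 0 without Hmx1 replicate 2. Effects that differed from SKNAS numbered 860 (3.06%) with no filter, 931 (4.99%) with the filter over 18 libraries, 242 (2.12%) at 5 TPM, 740 (4.88%) after median-ratio scaling and 780 (5.15%) after quantile normalization. For KELLY they numbered 49 (0.174%) with no filter, 17 (0.149%) at 5 TPM, 60 (0.396%) after median-ratio scaling, 80 (0.528%) after quantile normalization, 10 (0.066%) without SKNAS libraries and 19 to 31 (0.125% to 0.205%) without 1 LAN-1 library. Hmx1 replicate 1 lay at -5.04% of the way from the control mean to the other Hmx1 libraries on the first component, and at -36.0% with unit variance. The median of chromosome 9 relative to all genes was 0.22, and 0.18 with no filter. The medians of the 4 stretches, chosen after seeing the data, kept their sign in all 20 alternatives. Choosing them by these same libraries itself favours a kept sign. The cause of these moves was not tested. No paired analysis was possible because the labels carry no replicate numbers and those used here only name libraries. Depth limits genes of a few TPM, for which no counting error can be given.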
